A study of Arabidopsis thaliana with 6 samples.

Results

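The hexose-type SWEET genes of Arabidopsis thaliana are the genes of clades I, II and IV of the SWEET family: SWEET1 to SWEET3, SWEET4 to SWEET8, and SWEET16 and SWEET17. They are defined by gene symbol alone, but were chosen with earlier results of these data known. All 10 had a probe set assigned to a single gene, out of 22746 plant probe sets on the array. SWEET5 is listed under its other name, AtVEX1, and was matched through that synonym. SPT4-R3 is line 3 of plants in which SPT4, a partner of the transcript elongation factor SPT5, is targeted by RNA interference, in the Columbia-0 background. It was compared with wild-type Columbia-0, with 3 single-colour arrays (Affymetrix ATH1) per genotype. Seedlings of both genotypes were grown on solid MS medium for 10 days after 2 days of stratification, at 16 h light and 8 h dark, and only the aerial parts were taken, 2 h after lights on. The labels name a single RNAi line, and give neither the RNAi promoter nor whether plants were pooled. The arrays of a genotype are called biological replicates, but separate sowings are not stated, so p-values measure the spread between these samples only.

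SWEET proteins are membrane uniporters that let sugars move down their concentration gradient without using a proton gradient. Members of clades I and II carry mainly glucose and other hexoses, clade IV proteins sit in the vacuolar membrane and carry fructose and other sugars, and clade III proteins carry mainly sucrose. In leaves, sugars made in the light are moved between cytosol, vacuole and cell wall space, and hexoses are stored in the vacuole.

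The 10 genes divided into 5 with clear changes and 5 whose signals were low on every array, a division made after the values were seen. SWEET2, SWEET4 and SWEET16 were lower in SPT4-R3 by 0.92 to 1.0 on the log2 scale, and SWEET1 and SWEET17 were higher by 0.83 and 0.43. In the limma fit over all probe sets with Benjamini-Hochberg adjustment at 0.05, 3 of the 10 were higher and 3 lower, with SWEET8 as the third higher gene, at 0.16. Each clade thus held 1 gene called higher and 1 called lower, in clade II only through SWEET8, whose call depended on single arrays. On the whole array 49.9% of the probe sets passed, 26.4% as higher and 23.5% as lower, so the number of SWEET calls was near that of any probe sets. The signals of 6 of the 10 did not overlap between genotypes, against 55.1% of all probe sets. The median difference of the 10 genes was -0.06, beside -0.003 for all probe sets.

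**Figure D1:**
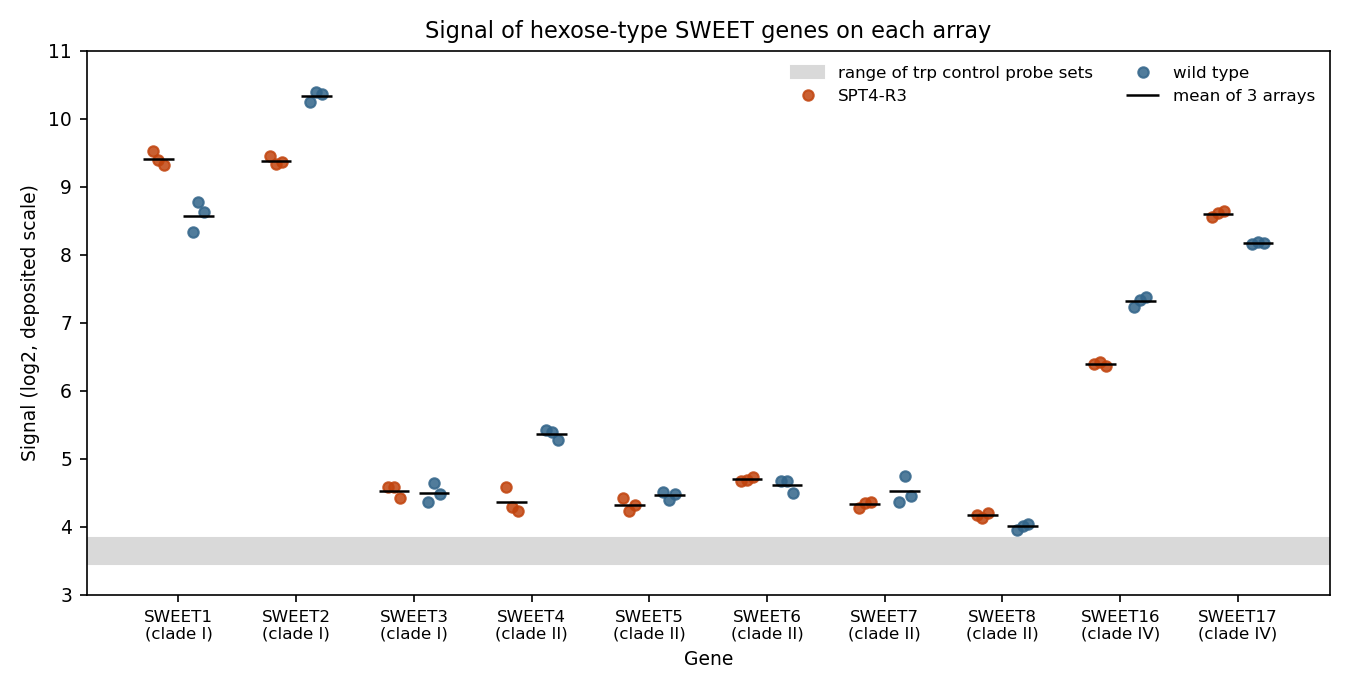
Signal of the 10 hexose-type SWEET genes on each of the 6 arrays (vertical axis, log2 on the deposited scale), with SPT4-R3 left of wild type for each gene, bars at the mean of 3 arrays and a grey band from 3.46 to 3.84, where the trp controls lie. SWEET1 and SWEET17 lie higher in SPT4-R3, SWEET2, SWEET4 and SWEET16 lie lower, and SWEET3 and SWEET5 to SWEET8 lie between 3.96 and 4.75 in both genotypes.

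The arrays of a genotype correlated at 0.998 to 0.999 across plant probe sets, and arrays of different genotypes at 0.976 to 0.977. SPT4-1 (AT5G08565), the measured gene of the RNAi target pair, read 5.0, 4.89 and 4.97 in SPT4-R3 against 5.79, 6.05 and 6.03 in wild type, a difference of -1.0 ± 0.0753 (SE, adjusted p = 2.15e-06 in limma). The bacterial bioB, bioC and bioD controls added at hybridisation averaged 8.62 ± 0.114 in SPT4-R3 and 9.01 ± 0.0302 in wild type (SD, n = 3). Centring on them raises every difference by 0.39 in the median, and their part in the results was not tested. The directions given here for called genes hold against the median probe set, while some uncalled differences near 0 do not. Centred on bioB, bioC and bioD, the changes of SWEET1, SWEET2, SWEET4, SWEET16 and SWEET17 kept their sign and their call. The leaf antenna genes LHCB4.1 and LHCB4.2 read 12.82 or more on every array, and fell by 0.51 and 1.14 in SPT4-R3 on the log2 scale. Their differences under other scalings are not given here. Of 3 measured genes listed as root markers, EXPA7 and EXPA18 were at 4.79 to 5.19. PYK10, a beta-glucosidase gene, read 11.76 in SPT4-R3 and 11.77 in wild type. The source of the PYK10 signal in these aerial parts was not tested. None of the 3 listed root markers passed in limma, also at an unadjusted p under 0.05. Centring on bioB, bioC and bioD called all 3 higher, EXPA7 by 0.28, PYK10 by 0.38 and EXPA18 by 0.40. In such whole-shoot samples, fewer cells of a type and less RNA per cell cannot be told apart.

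Within clade I, the genes with strong signals moved in opposite directions. SWEET1 (AT1G21460), a plasma membrane glucose uniporter, read 9.52, 9.39 and 9.32 in SPT4-R3, against 8.33, 8.77 and 8.63 in wild type. The lowest SPT4-R3 array lay above the highest wild-type array, with an SD of 0.101 in SPT4-R3 and a wider one of 0.225 in wild type. The difference was 0.83 ± 0.104 (SE, 95% interval 0.60 to 1.07), a 1.78-fold higher signal, with an adjusted p of 7.99e-05 in limma. A change at least this large in either direction was found for 7.68% of all probe sets.

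SWEET2 (AT3G14770), a clade I protein of the vacuolar membrane known from roots, where it limits sugar loss to the soil, read 9.45, 9.33 and 9.36 in SPT4-R3, against 10.24, 10.39 and 10.36 in wild type. The highest SPT4-R3 array lay well below the lowest wild-type array. SWEET2 fell by 0.95 ± 0.0612 (SE), which is 1.93-fold (adjusted p = 7.29e-07). SWEET3 (AT5G53190), the remaining clade I gene, read 4.58, 4.58 and 4.43 in SPT4-R3 and 4.36, 4.65 and 4.48 in wild type. Its genotypes overlapped, with a difference of 0.03 (95% interval -0.14 to 0.21, adjusted p = 0.761 in limma), and the difference became -0.04 without wild-type replicate 1.

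The change of SWEET1 relative to SWEET2 on the same array is not altered by a shift common to all probe sets of that array. Quantile normalization is no such shift, and gave SWEET1 a difference of 0.84 and SWEET2 -0.93. The log2 difference SWEET1 minus SWEET2 was 0.03 ± 0.0608 in SPT4-R3 and -1.75 ± 0.146 in wild type (SD, n = 3), a shift of 1.78. It did not overlap between genotypes (p = 0.1 in an exact two-sided permutation test, which with 3 arrays per genotype can give no smaller value). The values show unequal change and say nothing of which transcript is more abundant, since signals of different probe sets are not on a common scale. This pair and the clade IV pair were picked after their values were seen, and the adjusted p over both was 0.1. In each pair the genes moved in opposite directions without overlap between genotypes. The permutation p was thus fixed in advance and is no support.

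Of the 5 clade II genes, SWEET4 had the largest difference between genotypes. SWEET4 (AT3G28007), a plasma membrane hexose transporter active in vascular tissue, read 4.59, 4.30 and 4.23 in SPT4-R3, against 5.43, 5.40 and 5.28 in wild type. All SPT4-R3 arrays lay below all wild-type arrays, and replicate 1 was the highest of the SPT4-R3 arrays. The difference was -1.0 ± 0.0907 (SE, 95% interval -1.20 to -0.79), a 2.00-fold lower signal (adjusted p = 8.44e-06 in limma). In SPT4-R3 the gene fell to between the 21.2 and 27.9 percentiles of the plant probe sets of its array, against 37.3 to 38.6 in wild type. The SPT4-R3 level is thus among the dim probe sets, where array signals can understate differences. Whether they did so here was not tested.

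The other clade II genes were dim in both genotypes, with differences between -0.19 and 0.16. SWEET5 (AT5G62850), known from the vegetative cell of pollen, read 4.42, 4.24 and 4.32 in SPT4-R3 and 4.52, 4.40 and 4.49 in wild type, with overlap. Its difference of -0.14 did not pass (unadjusted p = 0.0477, adjusted p = 0.0872 in limma, with a 95% interval from -0.28 to just under 0), but passed without SPT4-R3 replicate 1 (-0.19, adjusted p = 0.0426). SWEET6 (AT1G66770) read 4.67, 4.69 and 4.74 in SPT4-R3 and 4.67, 4.67 and 4.50 in wild type, a difference of 0.09 (interval -0.05 to 0.23, adjusted p = 0.281 in limma). Here the ranges met at 4.67, and without wild-type replicate 3 the difference was 0.03.

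SWEET7 (AT4G10850) read 4.28, 4.35 and 4.37 in SPT4-R3 and 4.37, 4.75 and 4.46 in wild type. Its difference of -0.19 did not pass (interval -0.39 to 0.01, adjusted p = 0.103 in limma), and was -0.27 without wild-type replicate 1 (adjusted p = 0.0328) and -0.08 without wild-type replicate 2 (adjusted p = 0.319). SWEET8 (AT5G40260), also called RPG1 and needed for the wall of developing pollen, read 4.17, 4.13 and 4.21 in SPT4-R3 against 3.96, 4.02 and 4.05 in wild type. It was higher on every SPT4-R3 array, by 0.16 ± 0.0533 (SE, 1.12-fold, adjusted p = 0.0302 in limma). The call of SWEET8 was lost when SPT4-R3 replicate 1 or 3, or wild-type replicate 1 or 2, was left out (differences of 0.14 to 0.16, adjusted p = 0.054 to 0.1). A change at least as large was seen for 53.8% of all probe sets.

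No detection call was used, so whether these dim signals come from transcripts was not tested. All 10 genes read above the 3.46 to 3.84 of the trp controls, bacterial sequences that should be absent, on every array. SWEET3 and SWEET5 to SWEET8 nevertheless lay between the 13.4 and 30.7 percentiles of their arrays. The 4 measured of 14 pollen and anther markers, which seedling shoots should lack, read 3.61 to 4.67. The measured ones were HTR10, ANX1, ANX2 and AMS, and only ANX1, a pollen tube receptor kinase gene, passed the test, at -0.22 (adjusted p = 0.00949 in limma). ANX1 was not called when arrays were centred on bioB, bioC and bioD (0.17, adjusted p = 0.108 in limma) or on the poly-A controls (-0.07, adjusted p = 0.664).

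**Figure D2:**
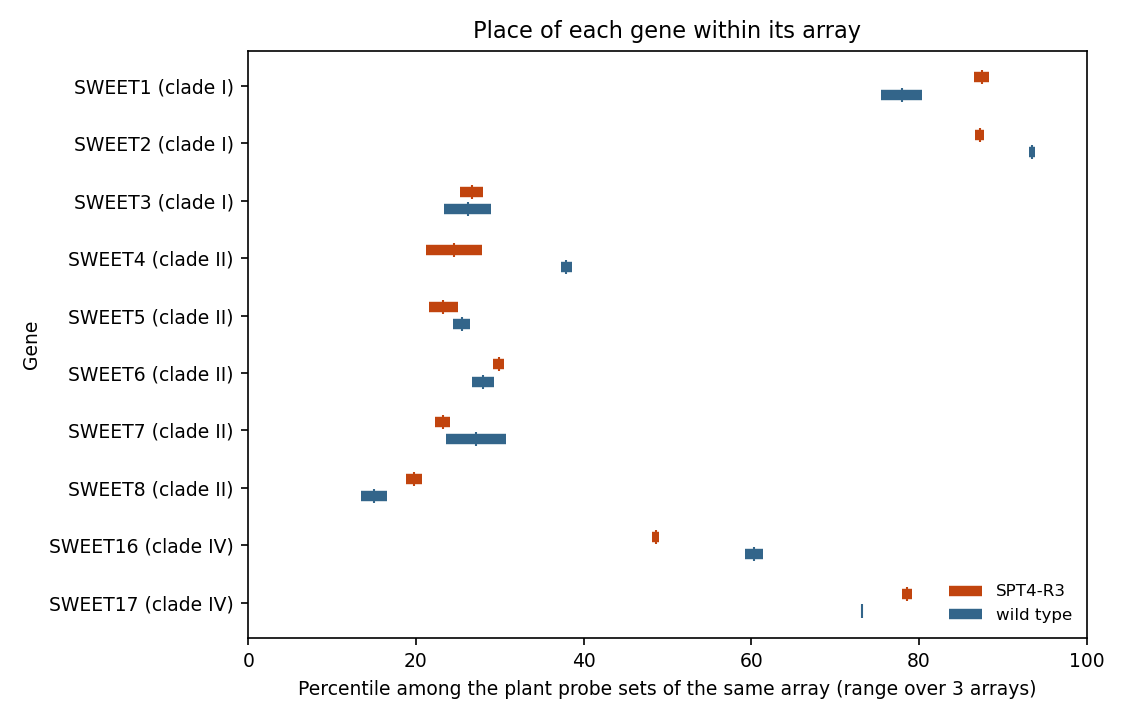
Percentile of each hexose-type SWEET gene among the plant probe sets of the same array (horizontal axis), drawn as the range over 3 arrays, with SPT4-R3 above wild type for each gene. A shift common to all probe sets of an array leaves these places unchanged; SWEET16 lay at 48.2 to 49.0 in SPT4-R3 and 59.3 to 61.4 in wild type, and SWEET17 at 78.0 to 79.1 in SPT4-R3 and 73.2 in wild type.

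The clade IV genes, whose proteins carry sugars across the vacuolar membrane, were clearly measured and diverged. SWEET16 (AT3G16690), a carrier of glucose, fructose and sucrose, read 6.39, 6.43 and 6.36 in SPT4-R3, against 7.23, 7.34 and 7.38 in wild type. The SPT4-R3 arrays lay close together and well below all wild-type arrays. SWEET16 fell by 0.92 ± 0.0578 (SE), or 1.90-fold (adjusted p = 5.96e-07 in limma). SWEET17 (AT4G15920), a fructose carrier that sets leaf fructose content, read 8.55, 8.62 and 8.65 in SPT4-R3, against 8.16, 8.19 and 8.17 in wild type. It was higher on every SPT4-R3 array by 0.43 ± 0.0522 (SE, 1.35-fold, adjusted p = 6.37e-05), a size reached by 23.1% of all probe sets.

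SWEET17 relative to SWEET16 was higher on every SPT4-R3 array than on any wild-type array. The log2 difference SWEET17 minus SWEET16 was 2.21 ± 0.0681 in SPT4-R3 and 0.86 ± 0.0702 in wild type (SD, n = 3), a shift of 1.36. The exact two-sided permutation p was 0.1, again the smallest possible and fixed in advance by the choice of pair. Among arrays, the lowest SPT4-R3 value was 2.16 and the highest wild-type value 0.93.

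**Figure D3:**
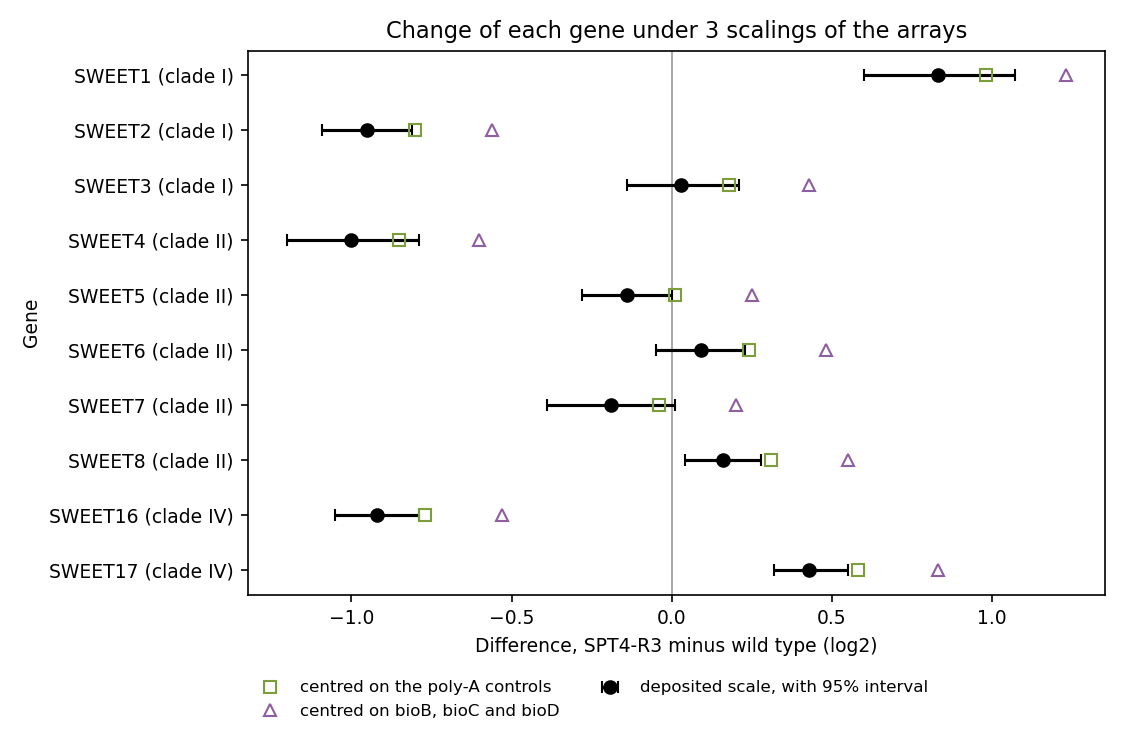
Difference between SPT4-R3 and wild type (horizontal axis, log2) of each hexose-type SWEET gene on the deposited scale with its 95% interval (circles), after centring on the poly-A controls (squares) and after centring on bioB, bioC and bioD (triangles). SWEET1 and SWEET17 stay right of 0 and SWEET2, SWEET4 and SWEET16 left of 0 under all 3 scalings, while SWEET5 and SWEET7 move to 0.25 and 0.20 with the last.

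Centring on bioB, bioC and bioD gave SWEET2 a difference of -0.56, SWEET4 -0.60 and SWEET16 -0.53, so the 3 falls became smaller and kept their call. SWEET1 then differed by 1.23 and SWEET17 by 0.83, and these 2 with SWEET3, SWEET5, SWEET6 and SWEET8 made 6 of the 10 genes called higher. Under this scaling 76.5% of all probe sets were called higher. Its calls rest on the same SE, 0.104, for each gene given, in place of an SE of the gene's own. The within-array places of the genes moved in the same directions for the strong signals. SWEET1 lay at the 86.6 to 88.4 percentiles in SPT4-R3 and at 75.5 to 80.4 in wild type, and SWEET2 at 86.7 to 87.8 in SPT4-R3 and 93.1 to 93.8 in wild type.

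By the likeness of their values over the 6 arrays, SWEET2 and SWEET16 were close to each other. Likeness was the root mean square difference between values centred on each gene's own mean, over 1556 genes with a symbol, so it follows mostly the size and sign of the genotype difference. SWEET16 was the third closest gene to SWEET2, and SWEET2 the third closest to SWEET16, at 0.0526 on the log2 scale. Closest to SWEET2 was GSTU16, a glutathione transferase gene, at 0.0291, followed by TBL34, a gene of xylan acetylation, at 0.0437. SWEET16 had bHLH121, a transcription factor of iron response, and GSTU16 before SWEET2, both at 0.0467.

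SWEET4 lay closest to UBC29, a ubiquitin-conjugating enzyme gene, at 0.0927, and to TBL34 and TBL36 at 0.0967 and 0.104. For SWEET1 the closest were GRXC2, a glutaredoxin gene, at 0.0521, BGLU42 at 0.0776 and CYP71B26 at 0.0966. SWEET17 was most like BOB1, a co-chaperone gene, at 0.0262, BRL1, a brassinosteroid receptor gene, at 0.0315, and scpl29 at 0.0334. SWEET8 had CRK, ATG8G and FCLY at 0.0293 to 0.0373. Of these, FCLY did not pass the test (0.10, adjusted p = 0.174 in limma). CRK and ATG8G passed narrowly (adjusted p = 0.0218 and 0.048 in limma). Of 13 alternative settings, CRK lost its call in 4 and ATG8G in 10.

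Genes next to the members on the chromosomes were looked up in RefSeq (TAIR10.1), a choice made after the values were seen. Of 14 measured neighbours of the 10 genes, 1 was called higher and 5 lower, beside 26.4% and 23.5% of all probe sets. Among the lower ones TRY, a trichome patterning gene, fell by 0.69 (adjusted p = 1.46e-05 in limma) beside SWEET3. AT5G62840 before SWEET5 and AT1G66760 before SWEET6 differed by -0.31 and -0.21 (adjusted p = 0.000895 and 0.0313 in limma). Their values under other scalings are not given here. Before SWEET2 on chromosome 3, AT3G14760 fell by 0.52 ± 0.0544 (SE, adjusted p = 2.19e-05 in limma), and AT3G14780 after it differed by -0.12 (adjusted p = 0.132). For SWEET16, also on chromosome 3, AT3G16680 differed by 0.01 (adjusted p = 0.893 in limma) and AT3G16700 by -0.36 (adjusted p = 0.00116). SWEET17 on chromosome 4 lies after DI21, which differed by -0.01 (adjusted p = 0.875 in limma), and before AT4G15930, which was higher by 0.24 (adjusted p = 0.00797). AT3G28020 after SWEET4 differed by 0.10 (adjusted p = 0.278 in limma). Its other neighbour and those of SWEET1 were not analysed here. Centred on bioB, bioC and bioD, AT3G14760 differed by -0.13 and AT3G16700 by 0.04, and neither was called, while AT3G28020 (0.49), AT3G16680 (0.41), DI21 (0.38) and AT3G14780 (0.28) were called higher. AT3G16700 was also not called when centred on the poly-A controls (-0.21, adjusted p = 0.166 in limma).

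Other genes of sugar transport and sucrose cleavage were counted from lists of which few members had a single-gene probe set. Of 12 listed tonoplast and ERD6-like monosaccharide carriers 5 were measured, with 1 higher, 1 lower and 3 not passing. Of all probe sets 26.4% were called higher and 23.5% lower. The median difference of the 5 carriers was 0.01. TMT1 (AT1G20840), which pumps hexoses into the vacuole, read 8.75, 8.70 and 8.87 in SPT4-R3, against 7.54, 7.49 and 7.47 in wild type. It was 2.42-fold higher, by 1.27 ± 0.0597 (SE, adjusted p = 8.31e-08 in limma). The related TMT2 differed by 0.11 and TMT3 by 0.01 (adjusted p = 0.151 and 0.937 in limma), and both were called higher when centred on bioB, bioC and bioD, by 0.51 and 0.40. SFP2 (AT5G27360), of the ERD6-like group, fell by 0.59 ± 0.0711 (SE, adjusted p = 6.64e-05), a call lost when arrays were centred on bioB, bioC and bioD (-0.19, adjusted p = 0.0724 in limma).

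Of 16 genes listed as sucrose-cleaving enzymes only cwINV6 (AT5G11920) was measured, which was listed as a cell wall invertase by its name alone. It was dim, at 4.34 in SPT4-R3 and 4.18 in wild type, and its call (adjusted p = 0.0435 in limma) was lost on leaving out replicate 1 or 3 of SPT4-R3 or of wild type (adjusted p = 0.0829 to 0.136). It was also lost on centring on the array median (adjusted p = 0.0657 in limma), with trend and robust settings (0.0601) and with the replicate block (0.0867). None of the STP hexose symporters, SUC sucrose symporters, hexose kinases or vascular markers listed was analysed here.

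**Figure D4:**
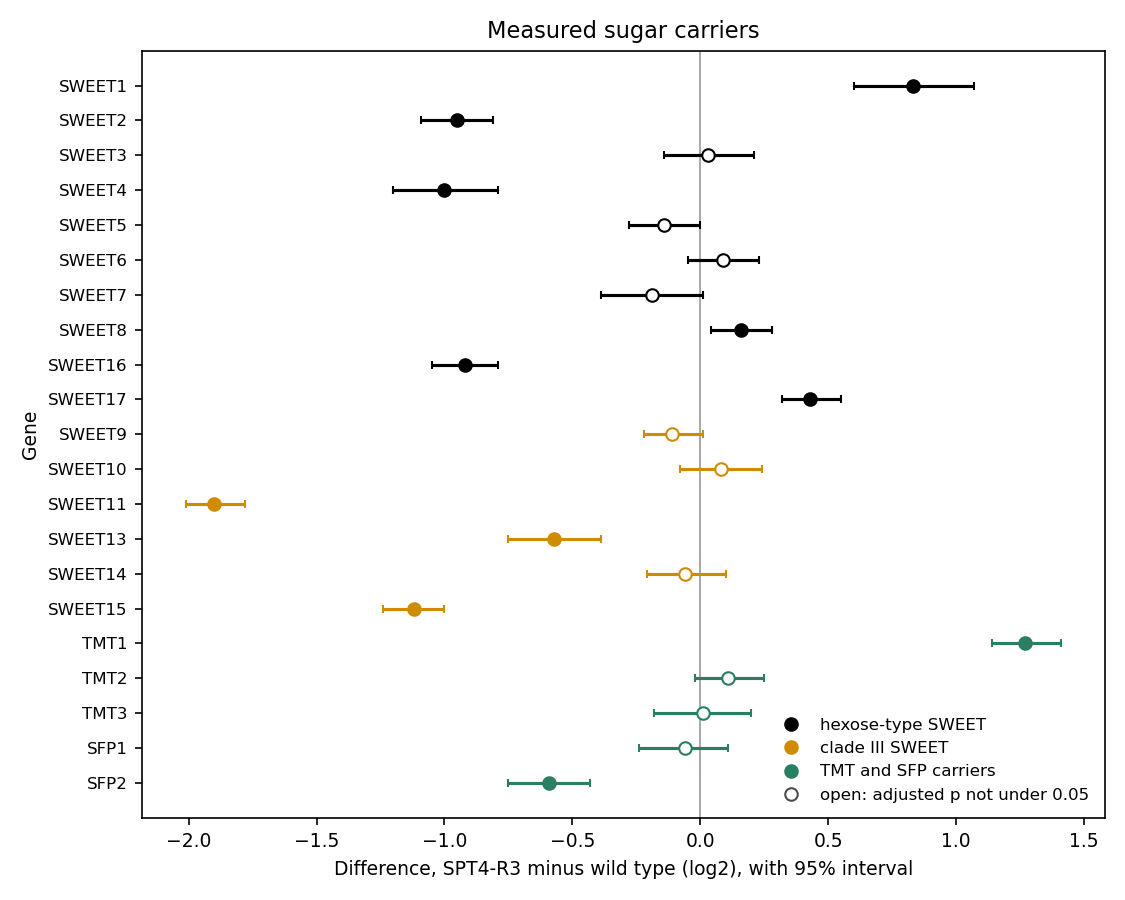
Difference between SPT4-R3 and wild type (horizontal axis, log2, with 95% interval) of the hexose-type SWEET genes (black), the measured clade III SWEET genes (orange) and the measured TMT and SFP carriers (green), with open circles for genes whose adjusted p was not under 0.05. The calls among hexose-type SWEET genes lie on both sides of 0, and those of clade III run from -0.57 to -1.90.

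Of 7 listed sucrose-type clade III genes, 6 were measured on the same arrays, with 3 lower, none higher and 3 not passing. Those not passing, SWEET9, SWEET10 and SWEET14, were dim in both genotypes, at 4.06 to 4.79. SWEET13 was also dim in SPT4-R3, at 4.51 to 4.85, against 5.22 to 5.32 in wild type. Of all probe sets 49.9% passed, 23.5% as lower and 26.4% as higher. SWEET11 fell by 1.90, SWEET15 by 1.12 and SWEET13 by 0.57 (adjusted p = 3.14e-09, 8.05e-08 and 0.000232 in limma), and SWEET13 lost its call when arrays were centred on bioB, bioC and bioD (-0.18, adjusted p = 0.101 in limma). Whether the clades differ from each other was not tested.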

How the data were processed

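The deposited table holds 1 value per probe set and array, read as log2 signal from its range. Per the submitters' processing notes, the authors' software was Affymetrix Expression Console; the algorithm and normalization are not stated there. Of 22810 probe sets, 64 were controls. In the platform annotation, 13513 of the others had 1 gene, 503 several and 8730 none. Gene symbols follow RefSeq (TAIR10.1), joined on the Entrez identifier, for the 13436 it held.

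All 22746 plant probe sets were fitted together with limma 3.58.1 in R 4.3.3 (lmFit, eBayes), without filter or further normalization. Tests were two-sided, Benjamini-Hochberg adjusted over all of them, with a threshold of 0.05. Arrays carry no counts, so their number, 3 per genotype, limits the precision.

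The members, the gene lists and the rule for named genes were chosen with earlier results of these data known. All 10 members were named, with up to 3 called genes of each other list (2 where none passed) and the 3 genes most like each called member. Outside that rule, LHCB4.1, LHCB4.2, TMT2, TMT3 and chromosomal neighbours were also named. So were the remaining measured root, pollen and anther markers and clade III SWEET genes. Alternatives were 4 other scalings, removal of the dimmest 30% of probe sets, trend and robust settings, a replicate block and each array left out. Sequences were not used here.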

Additional observations from a re-analysis of the deposited data

How the results depend on the processing

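The differences of SWEET1, SWEET2, SWEET4, SWEET16 and SWEET17 kept their direction and their call under all 13 alternatives run, with ranges of 0.71 to 1.23, -0.99 to -0.56, -1.10 to -0.60, -0.97 to -0.53 and 0.41 to 0.83. Centring on bioB, bioC and bioD called 6 hexose-type SWEET genes higher in place of 3, and 17406 probe sets higher and 1589 lower in place of 6007 and 5344. It gave SWEET3 0.43, SWEET5 0.25, SWEET6 0.48 and SWEET7 0.20, and turned ANX1 to 0.17, PYK10 to 0.38, EXPA7 to 0.28, AT3G14780 to 0.28, AT3G16700 to 0.04 and DI21 to 0.38. The moved differences follow from its construction, a common shift of 0.39. The calls also rest on a changed error. Each gene given under this centring had the same SE, 0.104, while the main fit gave the members 0.0522 (SWEET17) to 0.104 (SWEET1). Under the poly-A centring this common SE was 0.121. How far the changed calls under both centrings come from the shift or from the error was not tested. Centring on the poly-A controls, a shift of 0.15, gave 2478 lower probe sets, SWEET5 0.01, PYK10 0.13, EXPA7 0.03, AT3G14780 0.03 and DI21 0.14. Uncalled differences near 0 also changed sign: PYK10 to 0.00 with quantile normalization, and EXPA18 to -0.01, TMT3 to -0.01 and AT3G16680 to just under 0 (-0.0) on the array median. Leaving out 1 array gave SWEET3 -0.04 to 0.11, SWEET5 -0.19 to -0.10, SWEET6 0.03 to 0.12, SWEET7 -0.27 to -0.08 and SWEET8 0.14 to 0.18, with 2 to 3 members higher and 3 to 4 lower, and PYK10 -0.05 to 0.01, EXPA18 -0.02 to 0.05, TMT3 -0.10 to 0.06, AT3G16680 -0.03 to 0.06 and DI21 -0.04 to 0.04. Removal of the dimmest 30% of probe sets left 5 members, all called, where 35.5% of the probe sets kept were called higher and 30.2% lower. SWEET4 was kept through its wild-type signal, so its call there is no support. The replicate numbers did not pair the samples: deviations of same-numbered arrays correlated at -0.24, -0.126 and -0.0645, and 0 of 6 arrays correlated best with its own number. With the replicate block SWEET8 differed by 0.16 and lost its call (adjusted p = 0.0637 in limma), which left 2 members higher and 3 lower, and 5663 probe sets were higher and 5007 lower. Low signals near those of the trp controls limit what can be said of SWEET3 and SWEET5 to SWEET8.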
